A study of Mus musculus with 12 samples.

Results

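The cytochrome P450 families 2 and 3A are groups of heme enzymes of the endoplasmic reticulum, and their mRNA levels were compared in lung and liver of virgin and pregnant mice. The members were all genes whose only platform symbol is Cyp2 followed by a letter or starts with Cyp3a, with each gene represented by whichever of its probe sets was brightest on average across the 12 arrays. This gave 40 genes of the 18193 genes measured. They fall into 12 subfamilies: 11 genes of Cyp2c, 8 of Cyp2d, 5 of Cyp2j, 5 of Cyp3a, 4 of Cyp2b and 1 each of the other 7 (Cyp2a, Cyp2e, Cyp2f, Cyp2g, Cyp2r, Cyp2s and Cyp2u). RefSeq lists 57 coding genes under the same naming rule, and 18 of them were not analysed here. The probe set used for 5 members has a suffix that marks shared sequence: Cyp2b10, Cyp2c23 and Cyp2c65 (probes shared between genes) and Cyp2d9 and Cyp2f2 (probes shared by transcripts of 1 gene). Members within a subfamily are close copies, so a probe set's signal can include more than 1 of them.

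The animals were female NOD/SCID mice bred in house, 8 to 10 weeks old at the start. NOD/SCID is an inbred immunodeficient strain without mature T and B cells, a background that virgin and pregnant mice share. The 4 groups were virgin lung, lung at day 16 of gestation, virgin liver and liver at day 16 of gestation, with 3 arrays each. An array measured RNA pooled from 2 mice, so n is 3 pools per group and single mice cannot be seen.

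Most enzymes of these families insert an oxygen atom into drugs, steroids, bile acids or fatty acids, taking electrons from the cytochrome P450 reductase and, for some, from cytochrome b5. Their genes lie in clusters of tandem copies, and in liver many are controlled by nuclear receptors such as CAR, PXR and HNF4A and by the sex-dependent pattern of growth hormone. Hepatocytes hold most P450 of the body, while the club cells of the airways are the main P450-rich cells of mouse lung.

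The promoters of 4 members are shown first, as pairs of similar sequence, Cyp2b9 with Cyp2b13 and Cyp3a16 with Cyp3a44. Whether the pregnancy changes differ within a pair was not tested. RefSeq promoters of GRCm38.p6 were found for 32 of the 40 members. Capitals mark matches on either strand to TGTTTAC (the FOXA motif), CAAAGTCCA (HNF4), AGGTCA (the core of nuclear receptor sites) and TTGCNNAA (C/EBP). The stretch of Cyp2b9 is chr7:26173159-26173301 and that of Cyp2b13 is chr7:26061245-26061387, both on the plus strand. The stretch of Cyp3a16 is chr5:145469741-145469973 and that of Cyp3a44 is chr5:145805892-145806124, both on the minus strand. Each is printed 5′ to 3′ and begins 250 bases before the annotated start. The Cyp2b stretches end 108 bases before it and the Cyp3a stretches 18 bases before it. The bases after these ends were left out because they fall within annotated gene spans, and the shorter length was used for both Cyp2b genes. Identities and motif counts over all members use the full 250 bases, so they can include bases of the gene itself.
Cyp2b9: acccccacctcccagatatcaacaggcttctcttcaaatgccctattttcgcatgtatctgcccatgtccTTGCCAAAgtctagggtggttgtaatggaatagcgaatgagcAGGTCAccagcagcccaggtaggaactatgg
Cyp2b13: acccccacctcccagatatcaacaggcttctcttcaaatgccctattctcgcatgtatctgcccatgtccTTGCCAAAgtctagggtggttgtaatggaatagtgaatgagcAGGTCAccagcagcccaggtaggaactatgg
Cyp3a16: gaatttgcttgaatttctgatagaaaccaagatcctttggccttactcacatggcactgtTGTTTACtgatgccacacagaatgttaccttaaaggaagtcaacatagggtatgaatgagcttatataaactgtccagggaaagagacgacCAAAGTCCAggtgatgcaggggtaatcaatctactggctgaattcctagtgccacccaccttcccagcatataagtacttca
Cyp3a44: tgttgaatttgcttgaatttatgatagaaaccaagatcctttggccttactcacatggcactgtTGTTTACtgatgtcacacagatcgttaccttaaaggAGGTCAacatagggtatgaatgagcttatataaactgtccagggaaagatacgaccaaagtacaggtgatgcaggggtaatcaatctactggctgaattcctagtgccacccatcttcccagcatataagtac

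Over the 250 bases before the start, Cyp2b9 and Cyp2b13 were identical at 248 positions and differed at 2. These were T48C and C104T, with the base of Cyp2b9 first and positions counted from 1 at the 5′ end. Cyp2b9 shared 70% of the aligned window with Cyp2b10. Cyp3a16 and Cyp3a44 shared 92.9%, with 236 identical bases, 10 mismatches and 8 gap positions. The HNF4 letters matched in Cyp3a16 and not in Cyp3a44, and the AGGTCA letters matched in Cyp3a44 and not in Cyp3a16, in the stretches shown. A match is a description of letters and not a bound site.

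Among the 32 member promoters, the FOXA letters matched in 6 (18.8%), against 3.17% of the 32851 promoters of the same length. The HNF4 letters matched in 5 (15.6%), against 0.384% of all, and AGGTCA in 11 (34.4%), against 14% of all. The C/EBP letters matched in 7 (21.9%), against 9.56%, and the STAT5 letters TTCNNNGAA in 1 (Cyp2j11), against 7.02%. Tandem copies share their sequence, so the members are not independent in these counts.

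Array medians were close between groups, and those of the deposited log2 values lay between 4.491 and 4.559. Correlations were 0.992 to 0.996 within a group and 0.840 to 0.853 between lung and liver arrays. Probe sets for poly-A control RNA, which is mixed into a sample ahead of labelling, had means of 11.93 to 12.41 on 10 arrays but 4.986 on virgin liver pool 3 and 5.197 on pregnant liver pool 3. A low level was set for each group at the 95th percentile of 80 probe sets of olfactory and vomeronasal receptors, genes of sensory neurons, which gave 4.41 to 4.87. By this level 28 members were low in each lung group, 7 in virgin liver and 8 in pregnant liver. The 6 members low in every group were Cyp2b19, Cyp2c65, Cyp2d12, Cyp2d34, Cyp2j11 and Cyp2j13.

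In liver, more of these genes fell than rose in pregnancy. Of the 40 members, 13 fell and 4 rose at an adjusted p under 0.05 (limma, adjusted over all genes), which is 42.5% of the members beside 13.6% of all genes. The falls covered 32.5% of members beside 7.62% of all genes, and the rises 10% beside 6.02%. The median change was −0.20 on the log2 scale over the members and −0.01 over all genes. The groups of arrays did not overlap for 26 members (65%), beside 28% of all genes. Of these 7 were higher and 19 lower in pregnancy, beside 12.7% and 15.3% of all genes. At least 2-fold changes were called for 5 members, where the share over all genes was 1.79%. Changes ran from −1.62 (Cyp2b13) to 1.64 (Cyp3a16), and the 23 members that did not pass lay between −0.48 and 0.34.

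**Figure D1:**
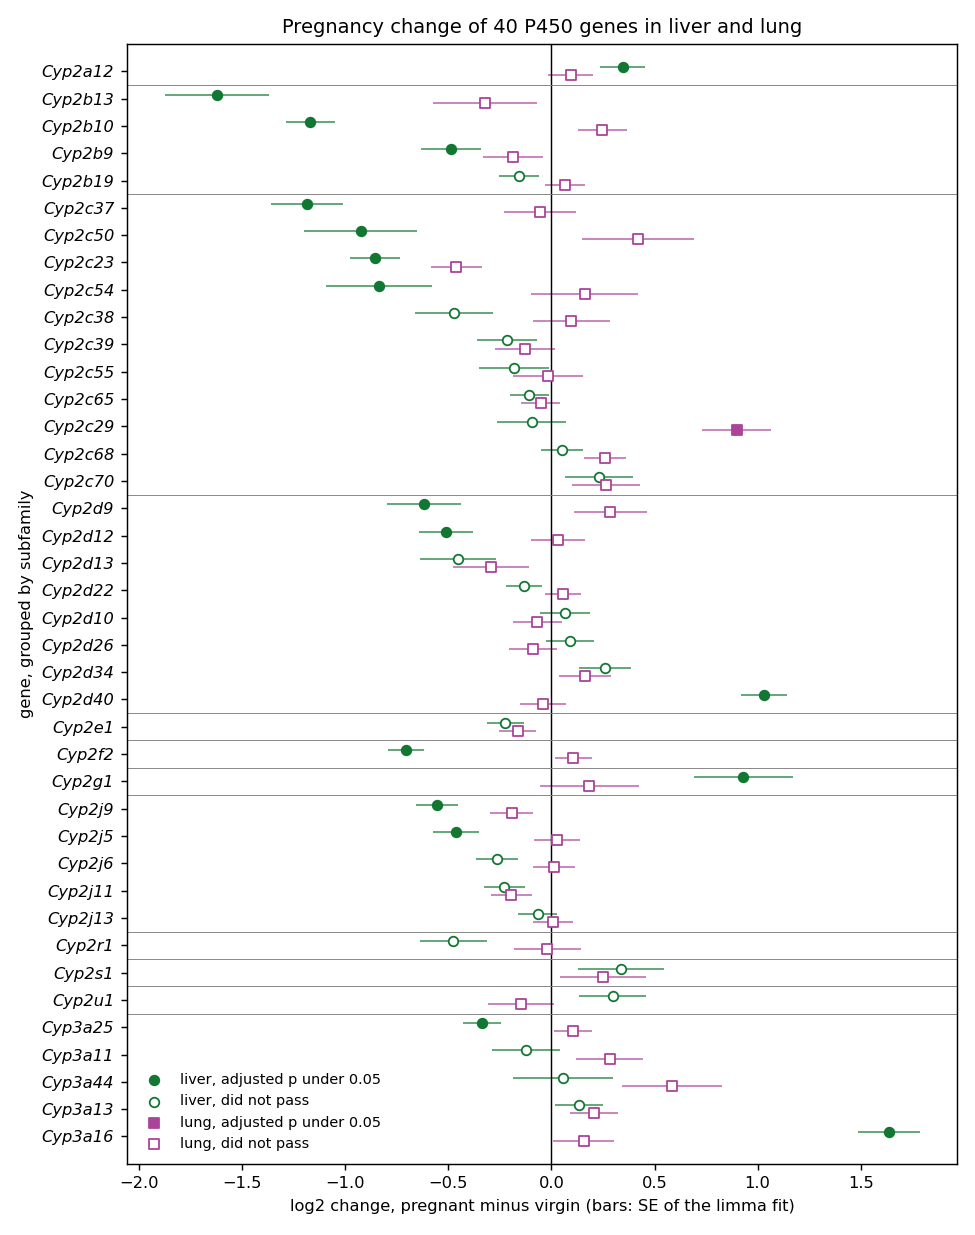
Change from virgin to pregnant (log2, horizontal axis) for the 40 P450 genes (vertical axis, ordered by subfamily), with circles for liver, squares for lung (filled at an adjusted p under 0.05) and bars of 1 standard error. In liver the changes run from −1.62 for Cyp2b13 to 1.64 for Cyp3a16, while in lung Cyp2c29, at 0.90, is the only gene that passed the test.

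The Cyp2b subfamily holds the phenobarbital-inducible P450s, and in liver 3 of its 4 members fell, with a median change of −0.83. Cyp2b13, which is female-predominant in mouse liver, read 11.21, 11.11 and 11.35 in the virgin pools 1, 2 and 3 and 9.68, 8.98 and 10.14 in the pregnant pools. All pregnant pools were below all virgin pools, and the pregnant pools also lay further apart. It fell by 1.62 ± 0.25 (SE, n = 3 pools per group), a 3.08-fold difference, with an adjusted p of 0.000638.

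Cyp2b10, the classic CAR target, read 8.51, 8.61 and 8.87 in virgin and 7.71, 7.48 and 7.30 in pregnant liver. The groups were apart, and the fall was 1.17 ± 0.12, or 2.25-fold (adjusted p = 1.49e-05). Of its 3 probe sets, those with probes shared between genes gave −1.30 and, for the one used, −1.17. The only one without such a suffix gave −0.93, which is less than 2-fold.

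Cyp2b9, female-predominant like Cyp2b13, read 11.40, 11.21 and 11.46 in virgin and 10.85, 10.82 and 10.94 in pregnant liver. These values did not overlap, yet the fall was small, at 0.49 ± 0.15 or 1.40-fold (adjusted p = 0.0413). The changes of Cyp2b9 and Cyp2b13 therefore stand side by side at −0.49 and −1.62, and their difference was not tested. The windows of 250 bases before their starts differ at 2 positions. Cyp2b19, a keratinocyte P450, was at a low level and changed by −0.16 (adjusted p = 0.335).

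The Cyp2c subfamily includes arachidonic acid epoxygenases and a bile acid enzyme, and 4 of its 11 members fell in liver while 0 rose (limma, with 0 members higher at an unadjusted p under 0.05), with a median change of −0.22. Cyp2c37, an enzyme of arachidonic acid, read 7.45, 7.27 and 7.29 in virgin and 5.97, 6.33 and 6.16 in pregnant liver. The groups lay well apart, and the fall was 1.19 ± 0.18, or 2.27-fold (adjusted p = 0.000396). Cyp2c23, an epoxygenase, read 9.04, 9.13 and 9.26 in virgin and 8.02, 8.36 and 8.48 in pregnant liver, again without overlap. It fell by 0.86 ± 0.12, or 1.81-fold (adjusted p = 0.000321).

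Cyp2c50, an epoxygenase, read 11.25, 11.16 and 11.30 in virgin and 10.43, 10.47 and 10.03 in pregnant liver, a fall of 0.93 ± 0.27 (adjusted p = 0.0372). Cyp2c54, a close copy of Cyp2c50, read 10.79, 10.87 and 11.02 in virgin and 10.06, 9.98 and 10.13 in pregnant liver, a fall of 0.84 ± 0.26 (adjusted p = 0.0466). In both, every pregnant pool was below every virgin pool. The standard errors of these 2 genes include a wide spread in lung, where both lay near the low level. Cyp2c37, Cyp2c54 and Cyp2c50 are consecutive among the measured members in RefSeq's order on chromosome 19, and all fell in the fit of all arrays, but the calls of Cyp2c54 and Cyp2c50 were lost whenever any 1 liver array was left out.

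The other Cyp2c members did not pass in liver. Among them Cyp2c38 differed by −0.47 ± 0.19 without overlap (adjusted p = 0.12). In a fit of the 6 liver arrays alone Cyp2c38 passed as lower, while Cyp2d9, Cyp3a25 and Cyp2a12 no longer passed. Cyp2c29, a phenobarbital-inducible enzyme, read 13.27, 13.18 and 13.28 in virgin and 13.16, 13.22 and 13.07 in pregnant liver, and these groups overlapped. Cyp2c70, which makes muricholic bile acids, read 13.05, 12.99 and 13.11 in virgin and 13.29, 13.28 and 13.29 in pregnant liver. Its groups did not overlap, but the difference of 0.23 ± 0.17 did not pass (adjusted p = 0.414). The standard error includes a wider spread in lung. The standard deviations were 0.30 (virgin) and 0.36 (pregnant) in lung, beside 0.060 and 0.007 in liver. The highest value on any array was 14.77, so Cyp2c29 and Cyp2c70 were near the top of the measured range. The same holds for Cyp3a11 and Cyp2e1 in liver, which read higher still, and for Cyp2f2 in lung.

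The promoters of Cyp2c37 and Cyp2c50, both of which fell, are shown for comparison with those above, with the same marks. So is that of Cyp3a11, which lies on chromosome 5 like Cyp3a16 and did not pass. Cyp2c37 lies at chr19:39992174-39992423 and Cyp2c50 at chr19:40089429-40089678, both on the plus strand, and Cyp3a11 at chr5:145879855-145880104 on the minus strand. The Cyp2c50 window holds none of the 4 marked motifs, and the aligned windows of Cyp2c37 and Cyp2c50 were 84.3% identical.
Cyp2c37: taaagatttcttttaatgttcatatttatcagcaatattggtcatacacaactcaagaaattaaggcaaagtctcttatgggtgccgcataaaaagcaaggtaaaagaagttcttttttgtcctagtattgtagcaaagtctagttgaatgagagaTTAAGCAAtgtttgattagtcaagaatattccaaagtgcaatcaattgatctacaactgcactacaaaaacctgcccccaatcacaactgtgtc
Cyp2c50: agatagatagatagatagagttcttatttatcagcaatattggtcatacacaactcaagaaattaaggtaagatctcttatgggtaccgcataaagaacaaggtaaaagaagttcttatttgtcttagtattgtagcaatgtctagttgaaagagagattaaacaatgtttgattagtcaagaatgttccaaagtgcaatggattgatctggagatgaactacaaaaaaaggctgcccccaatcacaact
Cyp3a11: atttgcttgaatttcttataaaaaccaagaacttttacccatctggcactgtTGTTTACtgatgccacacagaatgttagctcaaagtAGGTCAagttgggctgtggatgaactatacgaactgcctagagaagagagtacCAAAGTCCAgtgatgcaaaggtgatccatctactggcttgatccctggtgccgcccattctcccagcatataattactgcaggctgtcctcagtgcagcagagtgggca

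The Cyp3a subfamily holds the main drug-metabolising P450s of liver, and of its 5 members 1 rose and 1 fell, with a median change of 0.06. Cyp3a16, best known from fetal and newborn liver, read 8.75, 8.85 and 8.37 in virgin and 10.42, 10.20 and 10.27 in pregnant liver. Every pregnant pool was above every virgin pool by more than 1 log2 unit. The rise was 1.64 ± 0.15, or 3.11-fold (adjusted p = 5.33e-06), the largest rise among the 40 members.

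Cyp3a44, a female-predominant close copy, read 7.98, 8.10 and 7.90 in virgin and 7.84, 8.41 and 7.90 in pregnant liver. The groups overlapped, and the difference was 0.06 ± 0.24 (adjusted p = 0.919). Cyp3a25 read 12.53, 12.48 and 12.50 in virgin and 12.24, 12.23 and 12.03 in pregnant liver, without overlap, and fell by 0.34 ± 0.09 (adjusted p = 0.0274). Cyp3a11, the most studied mouse Cyp3a drug enzyme, read 13.74, 13.70 and 13.81 in virgin and 13.66, 13.62 and 13.60 in pregnant liver. It did not overlap between groups, but its difference of −0.12 ± 0.16 did not pass (adjusted p = 0.69). Here too the standard error includes a wider spread in lung. The standard deviations were 0.16 (virgin) and 0.43 (pregnant) in lung, beside 0.057 and 0.033 in liver. Cyp3a16 and Cyp3a11 shared 76.2% of the aligned promoter window, and Cyp3a16 and Cyp3a25 52%.

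**Figure D2:**
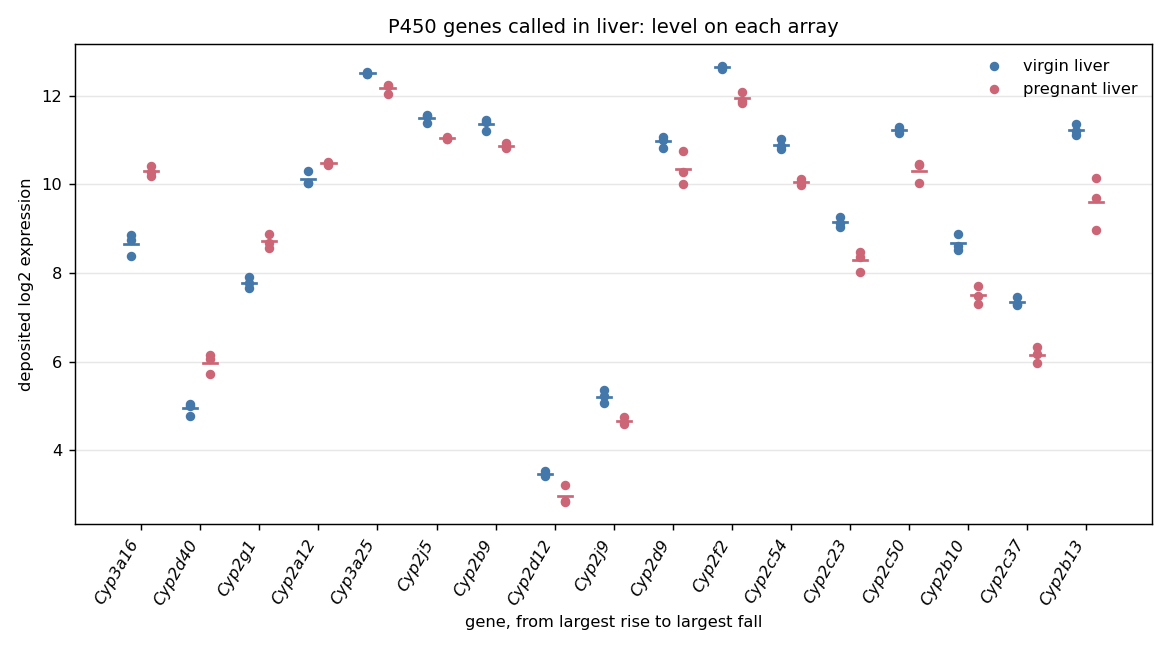
Deposited log2 expression (vertical axis) of the 17 P450 genes called in liver (horizontal axis, from the largest rise to the largest fall), with a point for each array and a line at the mean of 3 arrays. The virgin and pregnant points do not overlap for any of the 17, and levels of different genes come from different probe sets and are not comparable.

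In the Cyp2d subfamily, relatives of the human drug enzyme CYP2D6, 1 of 8 members rose and 2 fell, with a median change of −0.03. Cyp2d40 read 5.01, 5.04 and 4.78 in virgin and 6.05, 6.15 and 5.72 in pregnant liver. The groups were apart, and the rise was 1.03 ± 0.11, or 2.04-fold (adjusted p = 2.79e-05). Cyp2d9, a male-predominant steroid hydroxylase, read 11.07, 11.00 and 10.83 in virgin and 10.75, 10.01 and 10.29 in pregnant liver. The groups were separated by less than 0.1 at their nearest pools, and the fall was 0.62 ± 0.18, or 1.54-fold (adjusted p = 0.0339). Cyp2d12 passed too, at −0.51 ± 0.13 (adjusted p = 0.0176), but all of its values were under the low level, so no change of expression can be read from it.

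In the Cyp2j subfamily, epoxygenases of polyunsaturated fatty acids, 2 of 5 members fell and all 5 had a negative change, with a median of −0.27. Cyp2j5 read 11.55, 11.57 and 11.39 in virgin and 11.07, 11.02 and 11.03 in pregnant liver, without overlap, and fell by 0.46 ± 0.11 (adjusted p = 0.0126). Cyp2j9 read 5.35, 5.05 and 5.22 in virgin and 4.74, 4.64 and 4.58 in pregnant liver, without overlap, and fell by 0.55 ± 0.10 (adjusted p = 0.00238). All of its pregnant pools were under the low level of 4.87, so the size of this fall is not exact. The 2 probe sets of Cyp2j6 straddled the threshold: the one used gave −0.27 and did not pass, and the other gave −0.39 and passed when all probe sets were tested.

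The subfamilies with 1 measured member each moved in different ways. Cyp2f2, which activates naphthalene and is also made by periportal hepatocytes, read 12.60, 12.65 and 12.67 in virgin and 11.85, 11.88 and 12.08 in pregnant liver. The groups did not overlap, and it fell by 0.71 ± 0.09, or 1.63-fold (adjusted p = 0.000112). Cyp2g1, known from olfactory mucosa, read 7.66, 7.91 and 7.78 in virgin and 8.69, 8.56 and 8.89 in pregnant liver. The pregnant pools were all higher, with a rise of 0.93 ± 0.24 or 1.91-fold (adjusted p = 0.0189). Cyp2a12, a steroid and bile acid hydroxylase, read 10.03, 10.31 and 10.03 in virgin and 10.44, 10.45 and 10.51 in pregnant liver. These groups were close to each other, and the rise of 0.35 ± 0.11 only just passed (adjusted p = 0.0499).

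Cyp2e1, the ethanol-inducible P450, read 13.67, 13.63 and 13.71 in virgin and 13.47, 13.43 and 13.43 in pregnant liver. The groups did not overlap, but the difference of −0.22 ± 0.09 did not pass (adjusted p = 0.122). Cyp2r1, a vitamin D 25-hydroxylase, differed by −0.48 ± 0.16 (adjusted p = 0.0723), Cyp2s1, an epithelial P450, by 0.34 ± 0.21 (adjusted p = 0.332) and Cyp2u1, a fatty acid hydroxylase, by 0.30 ± 0.16 (adjusted p = 0.265).

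Of the 17 liver calls, 9 remained when each of the 6 liver arrays was left out in turn, namely Cyp3a16, Cyp2d40, Cyp2b10, Cyp2b13, Cyp2c23, Cyp2c37, Cyp2f2, Cyp2j5 and Cyp2j9. The other 8 were not. Cyp2c50 and Cyp2c54 passed in 0 of the 6 fits (limma), Cyp2a12 and Cyp2b9 in 1, Cyp2d9 and Cyp3a25 in 2, and Cyp2d12 and Cyp2g1 in 3. Their highest adjusted p was 0.152 for Cyp2a12 without virgin pool 1, 0.122 for Cyp2b9 without virgin pool 3, 0.126 for Cyp2c54 without virgin pool 3, 0.11 for Cyp2c50 without pregnant pool 3, 0.133 for Cyp2d9 without pregnant pool 2, 0.0648 for Cyp2d12 without pregnant pool 1, 0.0638 for Cyp2g1 without virgin pool 1 and 0.0824 for Cyp3a25 without pregnant pool 3. All 17 changes had the same sign in pools 1 and 2, which carried the poly-A signal, and in pool 3, which did not. They differed by over 1.5 times between these for 5 genes: Cyp2b13 (−1.83 and −1.20), Cyp2b10 (−0.96 and −1.58), Cyp2c50 (−0.75 and −1.27), Cyp3a25 (−0.27 and −0.46) and Cyp2a12 (0.28 and 0.48).

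Cell-type marker sums were also compared between the liver states. The summed level of 15 hepatocyte markers was 17.58 to 17.62 (log2) in virgin and 17.61 to 17.63 in pregnant liver. Of these 1 rose (Ahsg, 0.37) and 1 fell (Tdo2, −0.54). The sum includes genes near the top of the measured range, such as Alb (14.53 in both states), so it may not show a change. The sum of 11 pericentral hepatocyte markers was 14.39 to 14.42 in virgin and 14.13 to 14.18 in pregnant liver. That of 8 periportal markers was 14.49 to 14.57 and 14.26 to 14.31. Among the pericentral markers 2 rose and 1 fell, and among the periportal ones 1 rose and 2 fell. The sum of 8 blood cell markers was 9.39 to 9.58 in virgin and 10.37 to 10.53 in pregnant liver, with 4 of the 8 higher. The sum of 8 endothelial markers was 10.54 to 10.65 in virgin and 10.25 to 10.44 in pregnant liver, where 2 fell and all 8 had a negative change. That of 6 cholangiocyte markers was 7.35 to 7.53 and 6.94 to 7.34, with 1 lower. That of 8 Kupffer cell and macrophage markers was 12.58 to 12.75 and 12.34 to 12.68, with 1 lower. Of the cholangiocyte markers 2 were under the low level in virgin and 4 in pregnant liver. Of the endothelial markers 0 and 2 were, and of the blood cell markers 2 in each state. Of the pericentral markers 0 and 1 were, and of the periportal markers 1 in each state, so all these sums hold some background. The part of these shifts in the P450 changes was not tested, and in bulk tissue fewer cells of a type and less RNA per cell cannot be told apart.

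In lung, 1 of 40 members passed (2.5%, beside 0.594% of all genes), and it rose (beside 0.258% of all genes). With limma, 0 members fell at an adjusted p under 0.05. At an unadjusted p under 0.05 there were 3 higher and 1 lower, beside 770 and 1025 of all 18193 genes. The pools did not overlap for 7 members (beside 18.4% of all genes), of which 3 were higher and 4 lower (beside 8.06% and 10.4%). Cyp2c29, which was near the top of the range in liver, read 4.02, 3.67 and 3.86 in virgin and 4.31, 5.19 and 4.75 in pregnant lung. The groups did not overlap, the virgin pools were at a low level, and the rise was 0.90 ± 0.17 (adjusted p = 0.0338), a size that is not exact at these levels. The call was lost without virgin pool 2, virgin pool 3, pregnant pool 2 or pregnant pool 3, with a highest adjusted p of 0.147 without virgin pool 2, and in a fit of the lung arrays alone (adjusted p = 0.094). The 15 hepatocyte markers summed to 7.98 to 8.25 in virgin and 8.14 to 8.69 in pregnant lung, where 11 and 10 of them were low. Of the 15, 5 were higher at an unadjusted p under 0.05, beside 770 of all 18193 genes. After adjustment 0 of these markers passed as higher and 1 passed as lower. Their part in the Cyp2c29 value was not tested.

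The other 39 members differed by −0.46 to 0.58 in lung and did not pass. Cyp2f2, the main P450 of club cells, read 13.27, 13.17 and 13.27 in virgin and 13.37, 13.26 and 13.39 in pregnant lung, and these groups overlapped. Its difference was 0.11 ± 0.09 (adjusted p = 0.81). Cyp2b10 read 11.29, 11.33 and 11.36 in virgin and 11.58, 11.66 and 11.47 in pregnant lung. The groups did not overlap, but the difference of 0.25 ± 0.12 did not pass (adjusted p = 0.527). The 12 club cell markers summed to 15.94 to 16.07 in virgin and 15.96 to 16.06 in pregnant lung, and 0 of them passed in lung by limma. At an unadjusted p under 0.05, 1 of the 12 was lower, beside 1025 of all 18193 genes.

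The pregnancy changes of the tissues were then compared directly as the change in lung minus that in liver, in which 8 members passed (20%, beside 6.71% of all genes). The difference was positive for 6 (beside 3.34% of all genes) and negative for 2 (beside 3.37%). Cyp2b10 differed most in the positive direction, at 1.42 ± 0.17 (adjusted p = 0.000142), with a fall of 1.17 in liver and a difference of 0.25 in lung. Cyp2f2 followed the same signs, at 0.81 ± 0.13 (adjusted p = 0.0014). Cyp3a16 differed most in the negative direction, at −1.48 ± 0.21 (adjusted p = 0.000691), with lung values of 1.88 to 2.50 that were all under the low level. Cyp2d40 differed by −1.07 ± 0.16 (adjusted p = 0.000912), with lung values of 3.90 to 3.96 that were also low. Among the other positive differences, Cyp2c37 was low in both lung groups, Cyp2b13 in pregnant lung and Cyp2c29 in virgin lung, so their sizes are not exact. These differences share their arrays with the liver and lung changes and are not further evidence for them.

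Most of the members were higher in liver than in lung. Between the virgin tissues 38 of 40 members differed (95%, beside 68.7% of all genes), of which 34 were higher in liver and 4 in lung (85% and 10%, beside 34.4% and 34.3% of all genes). The pools did not overlap for 39 members (beside 73.2% of all genes), 4 of them higher in lung and 35 in liver (beside 35.8% and 37.4%). The liver excess was over 1 log2 unit for 30 members, over 5 for 21 and over 8 for 8. By subfamily the median difference of lung minus liver was −6.85 for Cyp2c, −6.51 for Cyp3a, −3.53 for Cyp2b, −2.09 for Cyp2d and −0.43 for Cyp2j. Cyp3a11 had the largest difference, at −11.07 ± 0.16 (adjusted p = 3.46e-16). It read 2.86, 2.56 and 2.63 in virgin lung, under the low level, so the size of such a difference depends on the background of the array. The 2 members that did not pass were Cyp2c65 and Cyp2j11, both low in every group.

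**Figure D3:**
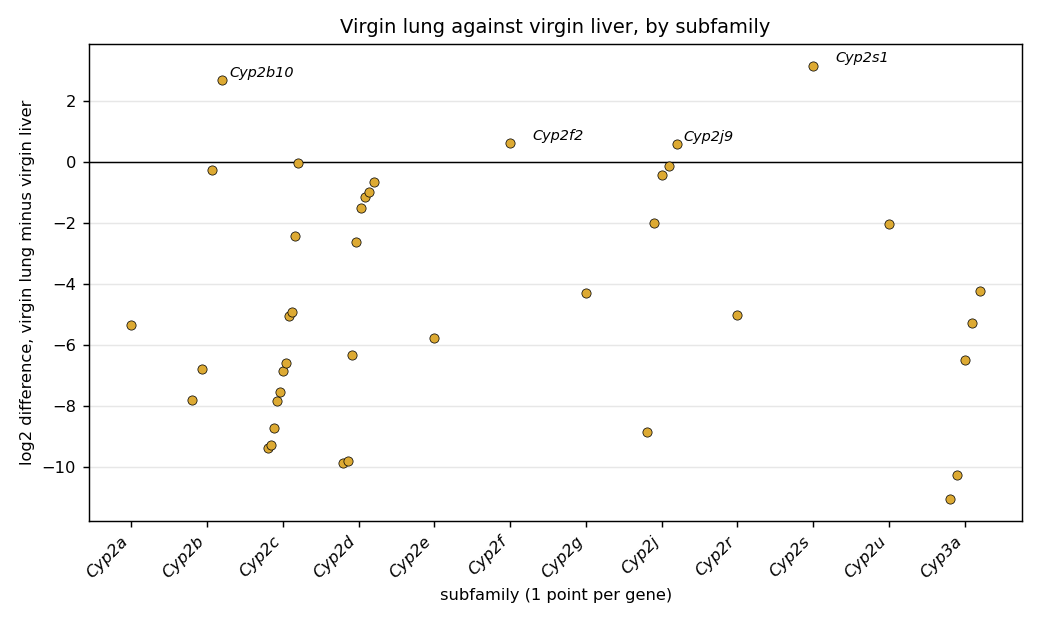
Difference of virgin lung minus virgin liver (log2, vertical axis) by subfamily (horizontal axis), with a point for each of the 40 genes. The 4 named genes lie above 0, from 0.57 for Cyp2j9 to 3.14 for Cyp2s1, and the lowest Cyp3a point is Cyp3a11 at −11.07.

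The 4 members higher in lung were Cyp2s1, Cyp2b10, Cyp2f2 and Cyp2j9. Cyp2s1 read 7.71, 7.27 and 7.60 in virgin lung and 4.17, 4.04 and 4.93 in virgin liver, a difference of 3.14 ± 0.21 (adjusted p = 5e-09), with the mean liver value at a low level. Cyp2b10 was higher in lung by 2.66 ± 0.12, or 6.31-fold (adjusted p = 5.37e-11). Cyp2f2 was higher by 0.59 ± 0.09, or 1.51-fold (adjusted p = 3.65e-05), with lung values near the top of the measured range, so this size may be compressed. Cyp2j9 read 5.77, 5.74 and 5.83 in lung against 5.35, 5.05 and 5.22 in liver (1.48-fold, adjusted p = 0.000209). The tissues did not overlap for any of these 4 genes. The members above the low level in both lung groups were these 4 with Cyp2a12, Cyp2d9, Cyp2d13, Cyp2d22, Cyp2e1 and Cyp2j6.

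**Figure D4:**
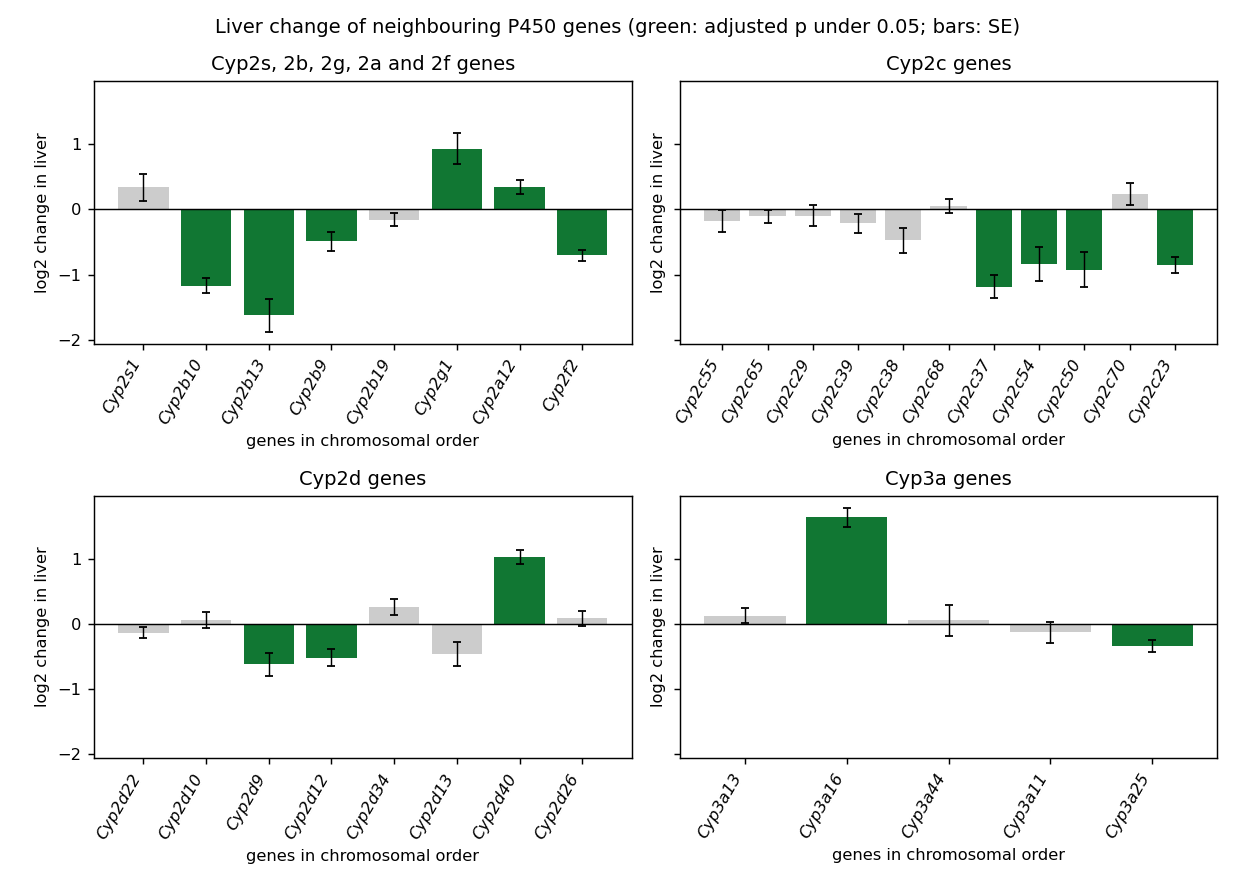
Liver change from virgin to pregnant (log2, vertical axis) of the measured members of 4 gene clusters in RefSeq's order along the chromosome (horizontal axis, order and not distance), with green bars where the adjusted p was under 0.05 and error bars of 1 standard error. On chromosome 19 the neighbouring Cyp2c37, Cyp2c54 and Cyp2c50 lie at −1.19, −0.84 and −0.93, and on chromosome 5 Cyp3a16 at 1.64 stands beside Cyp3a44 at 0.06.

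Related genes were counted in lists, each set beside the values over all genes in liver, where 13.6% were called (6.02% higher and 7.62% lower) with a median change of −0.01. Of 17 measured redox partners and heme enzymes 1 rose and 3 fell (23.5% called, median −0.12). The gene of the cytochrome P450 reductase was not among these 17. Cyb5r3, the cytochrome b5 reductase, rose by 0.63 ± 0.12 (adjusted p = 0.00272), Cyb5a, cytochrome b5, fell by 0.32 (adjusted p = 0.0141), and Blvrb, a biliverdin reductase, fell by 0.74 ± 0.10 (adjusted p = 0.00013), as did Pgrmc1, a heme-binding membrane protein, by 0.24 (adjusted p = 0.0482). Of 31 regulators of P450 genes 4 rose and 3 fell (22.6% called, median −0.15). Foxa3, a hepatocyte transcription factor, rose by 1.32 ± 0.16 (adjusted p = 7.27e-05), and Ghr, the growth hormone receptor, rose by 1.03 ± 0.08 (adjusted p = 1.78e-06). Foxa1 fell by 0.79 ± 0.10 (adjusted p = 7.53e-05), and Nr0b2, the corepressor SHP, fell by 0.70 ± 0.21 (adjusted p = 0.0373). Nr1i3, which encodes CAR, differed by −0.40 ± 0.28 (adjusted p = 0.401) and Nr1i2, which encodes PXR, by −0.52 ± 0.23 (adjusted p = 0.17), and neither passed.

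Of 31 measured genes of other P450 families 6 rose and 9 fell in liver (48.4% called, median −0.15). Cyp17a1, a steroid hydroxylase, rose by 1.97 ± 0.17 (adjusted p = 2.51e-06) and Cyp26a1, which degrades retinoic acid, by 1.05 ± 0.21 (adjusted p = 0.00387). Cyp39a1, an oxysterol hydroxylase, fell by 1.81 ± 0.22 (adjusted p = 8.53e-05), and Cyp4a14, a fatty acid hydroxylase, by 3.91 ± 0.29 (adjusted p = 6.24e-07). Its pregnant mean of 4.77 was under the low level, so the size of that fall is not exact. Of the 6 rises, those of Cyp1b1 (4.04 and 4.41 in virgin and pregnant liver) and Cyp24a1 (3.50 and 3.86) lay under the low level in both groups, and no change of expression can be read from them. Of 29 flavin, epoxide, aldehyde and alcohol enzymes 3 rose and 9 fell (41.4% called, median −0.24), with the aldehyde dehydrogenases Aldh1a7 at 1.63 ± 0.09 (adjusted p = 3.38e-08) and Aldh1b1 at 1.60 ± 0.22 (adjusted p = 0.000259). Fmo5, a flavin monooxygenase, fell by 1.37 ± 0.09 (adjusted p = 2.13e-07) and Aox3, an aldehyde oxidase, by 1.36 ± 0.11 (adjusted p = 2.43e-06).

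Sex-biased liver genes outside the families moved both ways. Of 12 measured female-biased genes 2 rose and 3 fell (41.7% called, median −0.01), among them Ntrk2, a neurotrophin receptor, at −1.77 ± 0.10 (adjusted p = 3.36e-08), the transporters Slc22a29 at −1.07 ± 0.13 (adjusted p = 5.72e-05) and Slc22a26 at −1.04 ± 0.17 (adjusted p = 0.000792), and Nipal1, a magnesium transporter, at 0.84 ± 0.17 (adjusted p = 0.00363). Of 12 male-biased genes 3 rose and 2 fell (41.7% called, median −0.00), among them C8a, a complement component, at 0.91 ± 0.11 (adjusted p = 0.000109), Cyp7b1, an oxysterol hydroxylase, at 0.81 ± 0.14 (adjusted p = 0.00148), Gstp1, a glutathione transferase, at 0.63 ± 0.08 (adjusted p = 0.000156) and Hsd3b5, a steroid dehydrogenase, at −0.61 ± 0.15 (adjusted p = 0.0165). The other male-biased fall, Ugt2b38, was under the low level in both liver groups (3.90 and 3.32), and no change of expression can be read from it. In lung, limma called 1 female-biased gene higher (Ntrk2, 0.65 ± 0.10, adjusted p = 0.0098) and 1 alcohol dehydrogenase lower (Adh1, −0.65 ± 0.10, adjusted p = 0.0114), and no other gene of these 6 lists passed there.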

How the data were processed

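Expression was measured on 12 one-colour Affymetrix arrays, 3 RNA pools of 2 mice in each of 4 groups taken from the labels. The deposited values are on the log2 scale, made by the authors with RMA in the affy package, per the submitters' processing notes, and tool versions and which arrays were normalized together are not given in the sources used here. RMA fits each probe set over arrays and can compress differences at low and very high signal. Of 45101 probe sets 64 controls were left out, and 34945 probe sets had a single symbol, 932 several and 9160 none. The probe set with the highest mean stood for each of 18193 genes, without a filter on dim values. With limma 3.58.1 (R 4.3.3), 4 group means were fitted to the 12 arrays together, giving log2 differences, standard errors and Benjamini-Hochberg adjusted p-values over all genes, called under 0.05, where p-values measure the spread between pools. Members named were all those called in a pregnancy contrast or in the difference between tissues, and those higher in virgin lung. Other members, and CAR and PXR, were named after their values were known. From each list, up to 4 called genes with the largest liver change were taken. The fit was also run on data simulated with independent noise and known changes of at least 2-fold. Smaller changes, batches and correlated genes were not covered by it. The members, lists and tests were chosen with earlier results of these data known. Alternatives, given in the closing section, changed the arrays fitted, probe set choice, filter, scaling, weights, blocks and thresholds.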

Additional observations from a re-analysis of the deposited data

Results flagged for a closer look

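For 8 members the change in pregnancy differed between lung and liver by the test of that difference itself (limma, all 12 arrays), given as the change in lung minus that in liver on the log2 scale. The difference was 1.42 for Cyp2b10, 1.30 for Cyp2b13, 1.13 for Cyp2c37, 0.994 for Cyp2c29, 0.905 for Cyp2d9 and 0.812 for Cyp2f2. It was −1.07 for Cyp2d40 and −1.48 for Cyp3a16. In lung, Cyp2c37, Cyp2d40 and Cyp3a16 were at a low level in both groups, Cyp2b13 in pregnant and Cyp2c29 in virgin mice, so the sizes of these differences are not exact. The test for Cyp2b13 (adjusted p = 0.046) and that for Cyp2d9 (adjusted p = 0.0481) were near the threshold. Each held in 2 of 12 fits without 1 array, with highest adjusted p-values of 0.108 and 0.111. Cyp2c29 held in 11 of 12, with 0.0598 without lung virgin pool 2, and the other 5 held in all 12. No group had 4 or more arrays, so single arrays were not tested as outliers.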

How the results depend on the processing

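Of 162 recomputed counts of called members 139 stayed within 1.5 times the reported count. These include the count of members lower in lung, which was 0 in every setting and was taken as kept. A kept count can hold other genes. Without lung virgin pool 1, for example, 5 positive differences shared 4 genes with the reported 6. Of 552 recomputed member results 421 kept their call, 131 lost it and 0 reversed. The liver count of 4 higher became 2 with array weights, at an adjusted p under 0.01, with a 2-fold minimum and without both liver pools 3, and was 2 to 4 when single arrays were left out. The liver count of 13 lower became 8 with quantile normalization, 8 with array weights, 6 at an adjusted p under 0.01, 3 with a 2-fold minimum and 7 without both liver pools 3, and was 7 to 11 when single arrays were left out (7 without virgin pool 1 or pregnant pool 3). The lung count of 1 higher became 0 with the lung arrays alone, at an adjusted p under 0.01 and with a 2-fold minimum, and was 0 to 1 without single arrays. The 6 positive differences became 2 at an adjusted p under 0.01 and 3 with a 2-fold minimum, and the 4 genes higher in lung became 2 with a 2-fold minimum. The cause of the changes under array weights and quantile normalization was not tested.

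With the pool number as a replicate block the liver counts were 4 higher and 12 lower (Cyp2b9 was lost), the lung counts 1 and 0, the differences 5 and 2 and the tissue counts 4 and 34. Deviations of same-numbered virgin and pregnant liver pools correlated at −0.110 to 0.108, and 2 of 6 correlated best with their own number. Between lung and liver they correlated at −0.037 to 0.106 in virgin (3 of 6) and −0.021 to 0.019 in pregnant mice (2 of 6). The labels do not say whether lung and liver pools of 1 number came from the same mice. The numbers were not taken to pair the samples. With the pool number within a state as a random block, the 6 positive differences became 7, with Cyp2c50 added. Among probe sets without a shared-sequence suffix 36 members remained, with 3 higher and 10 lower in liver, since Cyp2c23, Cyp2d9 and Cyp2f2 have no such probe set and Cyp2a12 did not pass. In each lung group 28 of 40 members were at a low level, and precision is limited by having 3 arrays in a group. No member changed sign in liver or lung under median centring or quantile normalization.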
